A study of Mus musculus with 6 samples.

Results

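A set of 9 genes that encode feedback inhibitors of MAP kinase signaling were examined in stage 0 iNKT cells from mice of the BALB/c and SKG genotypes. They were the dual-specificity phosphatase genes Dusp2, Dusp4, Dusp5, Dusp6 and Dusp10, the Sprouty genes Spry1 and Spry2, and the Sprouty-related genes Spred1 and Spred2. These 9 genes were taken by symbol from the 48397 genes of the count table, and 8 of them passed the filter on low counts, Spry2 being the exception. Stage 0 iNKT cells are the earliest precursors of invariant natural killer T cells, thymocytes whose T cell receptor (TCR) recognizes lipids on CD1d. They were sorted with PBS57-loaded CD1d tetramer as CD24+ CD69+ cells that were CD44- and CD8- with little or no CD4. The BALB/c group was wild type, and the SKG group carried a hypomorphic mutation of Zap70, the kinase next to the TCR, on the same BALB/c background. All mice were 8 to 10 weeks old and untreated as far as the labels say. Each genotype was represented by 3 libraries, and each library came from about 1000 cells of 3 pooled thymi, so that replicates are pools of animals. The question put to these data was whether transcripts of the feedback genes differ when TCR signaling through Zap70 is weakened.

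The TCR activates Zap70, which through the adaptor Lat switches on Ras and the kinases Raf, MEK and ERK, while parallel branches lead to the kinases JNK and p38. MAP kinase phosphatases remove the activating phosphates from ERK, JNK or p38, and Sprouty and Spred proteins act further upstream, on the activation of Ras and Raf. Many of these inhibitors are themselves induced by ERK signaling, which makes them a negative feedback loop and, in many cells, a transcriptional readout of the pathway. In thymocytes ERK activity is known to be required for positive selection.

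To show the regulatory DNA of the 3 members with the highest transcript levels and of the member that held serum response elements, the RefSeq promoter windows on GRCm38.p6, from 250 bases before to 50 bases after the start, are given 5′ to 3′ in the direction of transcription. Capitals mark the matches to 6 motifs that were searched on both strands.

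Dusp6, chr10:99262981-99263280, plus strand: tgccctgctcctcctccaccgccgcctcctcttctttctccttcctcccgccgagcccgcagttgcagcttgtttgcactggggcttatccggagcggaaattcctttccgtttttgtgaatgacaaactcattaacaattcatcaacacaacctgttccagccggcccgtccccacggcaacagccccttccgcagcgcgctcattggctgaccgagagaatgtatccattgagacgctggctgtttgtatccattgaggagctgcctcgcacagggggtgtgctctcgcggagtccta
Spry1, chr3:37639697-37639996, plus strand: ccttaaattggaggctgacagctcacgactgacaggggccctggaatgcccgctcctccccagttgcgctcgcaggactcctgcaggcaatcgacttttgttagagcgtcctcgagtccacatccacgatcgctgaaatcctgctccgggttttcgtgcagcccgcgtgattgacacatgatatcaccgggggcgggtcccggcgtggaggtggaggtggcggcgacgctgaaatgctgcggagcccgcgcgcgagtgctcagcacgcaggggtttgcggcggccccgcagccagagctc
Dusp2, chr2:127335909-127336208, plus strand: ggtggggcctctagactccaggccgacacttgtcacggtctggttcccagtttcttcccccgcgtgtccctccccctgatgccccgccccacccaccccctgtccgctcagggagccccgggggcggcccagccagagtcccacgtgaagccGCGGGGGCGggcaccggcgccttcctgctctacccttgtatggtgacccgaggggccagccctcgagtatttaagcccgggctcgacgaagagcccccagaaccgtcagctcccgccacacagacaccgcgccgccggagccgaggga
Dusp5, chr19:53528895-53529194, plus strand: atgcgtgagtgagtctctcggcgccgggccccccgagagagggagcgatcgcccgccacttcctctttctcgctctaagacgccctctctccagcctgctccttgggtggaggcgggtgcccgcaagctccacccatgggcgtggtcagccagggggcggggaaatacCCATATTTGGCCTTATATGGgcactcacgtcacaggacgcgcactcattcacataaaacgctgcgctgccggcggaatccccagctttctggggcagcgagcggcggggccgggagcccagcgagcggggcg

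Windows were found for 8 of the 9 members, the exception being Dusp4. The Dusp5 window held 2 adjacent matches to the serum response element bound by SRF, starting 82 and 72 bases before the start, and such an element lay in 1.63% of all 32851 windows of this length. The Dusp2 window held a match to the Egr motif GCGNGGGCG, found in 5.55% of all windows, 98 bases before the start. The NFAT core GGAAAA, present in 23.4% of all windows, was found in those of Spry2, with 2 matches, and Spred2, with 1. No match to the AP-1 motif TGANTCA (7.81% of windows), the cyclic AMP response element TGACGTCA (1.79%) or the Ets motif CCGGAAG (8.86%) was found in any member. The windows of Dusp6, Spry1, Dusp10 and Spred1 held none of the 6 motifs. These are matches of letters in short windows, and no binding was measured.

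Reads counted on genes ranged from 37176544 to 43115544 per library, and 10835 to 14791 genes had at least 10 reads. Zeros were frequent, and 10.7% of the genes that reached 100 reads in any BALB/c library were at 0 in one of the others, and the corresponding share for SKG was 10.1%. The summed expression of 12 T cell and sort genes lay between 4990 and 6417 CPM (reads scaled to the TMM-normalized total of the library) in BALB/c and between 4695 and 5979 CPM in SKG. Of these 12 genes only Cd69, an activation marker used in the sort, did not overlap between the genotypes, at 312, 391 and 354 CPM in BALB/c and 152, 179 and 249.5 CPM in SKG. The sum does not show the spread of the low sort genes. Cd24a ranged from 7.31 to 52.4 CPM in BALB/c and from 31.9 to 90.7 CPM in SKG. Cd44 ranged from 4.07 to 14.5 CPM in BALB/c and from 0.103 to 5.01 CPM in SKG. Markers of other cells were unevenly spread within each genotype. The 7 double-positive thymocyte markers summed to 66.5 to 437 CPM in BALB/c and 71.1 to 221 CPM in SKG. The 6 myeloid markers summed to 3.72 to 64.8 and 5.91 to 135 CPM, with the highest sums in BALB/c replicate 1 and SKG replicate 3, from Lyz2 with 2215 and 3873 reads and Cd68 with 456 and 1018 reads, while Csf1r, Itgam, Adgre1 and Itgax were at 0 in both of these libraries. The 6 B cell markers stayed between 1.73 and 8.38 CPM over both genotypes. The 6 erythroid markers reached 69.7 CPM in BALB/c replicate 1 and at most 1.57 CPM elsewhere, with Alas2 at 0 throughout. The 5 thymic epithelial markers summed to 28.1 to 40.3 CPM in BALB/c and 10.0 to 86.9 CPM in SKG, with Krt5 and Psmb11 at 0 throughout. Nearly all of each sum came from Epcam alone, with 389 to 3141 reads per library. Foxn1 had at most 3 reads, and Krt8 was at 0 except for 49 reads in BALB/c replicate 3. In bulk samples, fewer cells that express a gene and less of its RNA per cell cannot be told apart.

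The members spanned a wide range of expression. Per kilobase of exon, Dusp2 had the highest mean over the 6 libraries at 124 CPM per kb, followed by Dusp6 at 62.2, Spry1 at 23.7, Dusp10 at 16.1, Dusp4 at 13.9, Dusp5 at 5.54, Spred2 at 3.37, Spred1 at 2.00 and Spry2 at 0.151 CPM per kb. Each gene was compared with the next in this order by a two-sided exact sign-flip permutation test over the 6 libraries. The smallest possible p of this test is 0.03125. The order was itself taken from the means of these same libraries, so the tests give it no independent support. Over these 8 pairs the adjusted p values of the exact test ran from 0.125 to 0.75. The 2 pairs at 0.125, Dusp6 with Spry1 and Spred1 with Spry2, were each at the smallest p that 6 libraries allow, so that their adjusted p is set by the design. Dusp6 was above Spry1 in 6 of 6 libraries, by 2.05 to 3.35 times, and Spred1 was above Spry2 in 6 of 6. The libraries did not separate Dusp10 from Dusp4, since Dusp10 was the higher in 3 of 6. By these means Dusp2 and Dusp6 were the most abundant members, and Spry2 was near the limit of detection.

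**Figure D1:**
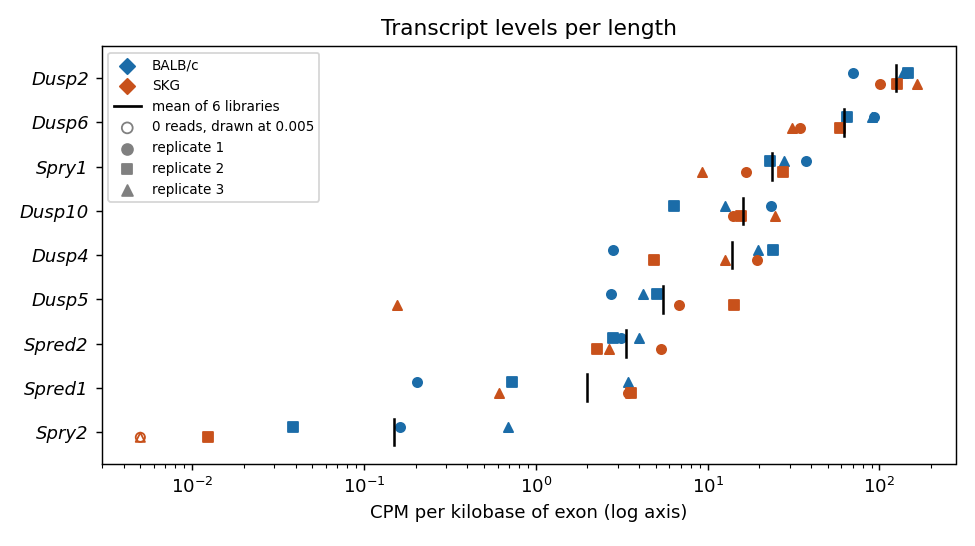
Transcript level of each feedback gene in CPM per kilobase of exon (log axis), 1 symbol per library with shapes for replicates, blue for BALB/c and orange for SKG, and a black tick at the mean of 6 libraries. Dusp2 lies between 70.4 and 165 CPM per kb, Dusp6 between 31.1 and 93.6, and Spry2 never exceeds 0.690; open symbols are libraries with 0 reads, drawn at an arbitrary low position.

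Between the genotypes, 0 of the 8 tested members were called differentially expressed by edgeR, which required an FDR (Benjamini-Hochberg) below 0.1 together with a 1.5-fold difference, against 0% of all 12312 genes tested. The lowest adjusted p over all genes was 0.212. At an unadjusted p under 0.05, 1 member was higher in BALB/c and 0 were higher in SKG, where 2.38% of all genes tested were higher in BALB/c and 3.07% higher in SKG. The 3 BALB/c libraries all lay above the 3 SKG libraries for 1 tested member, Dusp6, a pattern shown by 7.12% of all genes tested, and the reverse held for 0 members and 6.77% of all genes tested. Spry2, below the filter, was also without overlap. Without BALB/c replicate 1 the count was 3 members, with 21.6% of all genes tested then without overlap in either direction against 13.9% with all libraries. Of the 8 fold changes, 5 were above 0 on the log2 scale and 3 below, with a median of 0.10 against -0.02 over all genes tested. DESeq2 also called 0 members, while calling 370 genes without shrinkage and 231 with shrinkage of the 48397 genes of the whole table.

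**Figure D2:**
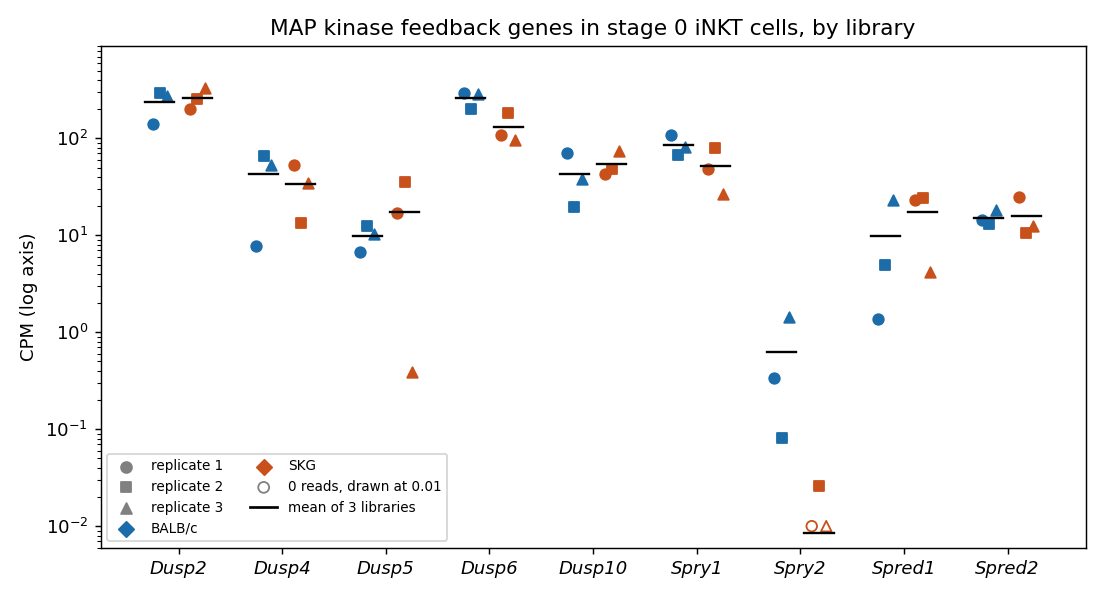
Expression of the 9 feedback genes in CPM (log axis) in every library, with blue symbols for BALB/c, orange symbols for SKG, shapes for replicates and a black line at the mean of 3 libraries. Dusp6 is the only tested gene whose 3 BALB/c libraries all lie above the 3 SKG libraries (202 to 293 against 97.3 to 184 CPM); open symbols mark 0 reads, drawn at 0.01.

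Dusp6 encodes the cytoplasmic phosphatase that is selective for ERK and is widely used as a readout of ERK activity (chr10:99263231-99267489, GRCm38). It had 12091, 7485 and 12833 reads in BALB/c replicates 1 to 3 and 4356, 7169 and 3518 reads in SKG replicates 1 to 3. In CPM these were 293, 202 and 284 in BALB/c and 108, 184 and 97.3 in SKG. The groups did not overlap, although SKG replicate 2 came close to BALB/c replicate 2. Mean expression was 259.7 ± 50.3 CPM in BALB/c and 129.9 ± 47.5 CPM in SKG (SD, n = 3 each), a 2.00-fold higher level in BALB/c. The log2 fold change of SKG over BALB/c was -0.999 (SE 0.30, 95% interval -1.71 to -0.29), with an unadjusted p of 0.0132 by edgeR, rank 199 of 12312 genes, and an adjusted p of 0.817. A two-sided exact permutation test gave p = 0.1, the smallest that 3 against 3 libraries allow. The difference of the means was larger than the SD of either genotype, but it did not pass the correction over all genes. The adjusted p was 0.236 in DESeq2 without shrinkage, 0.320 with shrinkage and 0.591 in limma-voom. With any single library left out the log2 fold change stayed between -1.33 and -0.81. Without the 2 libraries with the most Lyz2 and Cd68 (BALB/c replicate 1 and SKG replicate 3) it was -0.72. Cd69 had a log2 fold change of -0.87 (SE 0.22, adjusted p = 0.686 by edgeR), and its part in the difference of Dusp6 was not tested.

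The 3 phosphatases of the nucleus that are induced by signaling did not show the pattern of Dusp6. Dusp2, known as PAC-1, is an early gene of activated T cells (chr2:127336159-127338376). It had 5820, 10848 and 12432 reads in BALB/c against 8159, 9875 and 11933 reads in SKG, or 141, 292 and 275 CPM against 203, 254 and 330.0 CPM. The lowest and second-highest values were both from BALB/c, and the groups overlapped widely. The means were 236 ± 82.9 and 262 ± 64.1 CPM (SD, n = 3 each), and the log2 fold change was 0.15 (SE 0.32, 95% interval -0.62 to 0.92, adjusted p = 0.991). This interval leaves room for a change of either sign, and the sign itself turned when BALB/c replicate 1 (-0.11) or SKG replicate 3 (-0.04) was left out. The ratio of Dusp6 to Dusp2 per kilobase, a ratio chosen after the values were seen, was 1.33, 0.441 and 0.660 in BALB/c and 0.341, 0.464 and 0.189 in SKG. The groups overlapped in this ratio as well, through BALB/c replicate 2 and SKG replicate 2.

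Dusp4 acts on ERK, JNK and p38 (chr8:34807297-34819894). It had 318, 2453 and 2428 reads in BALB/c against 2149, 518 and 1257 reads in SKG, or 7.71, 66.1 and 53.8 CPM against 53.3, 13.3 and 34.8 CPM. Each genotype had a low library, BALB/c replicate 1 and SKG replicate 2. The log2 fold change was -0.33 (SE 0.85, 95% interval -2.37 to 1.70, adjusted p = 0.991).

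Dusp5, a nuclear phosphatase selective for ERK (chr19:53529109-53542431), had 280, 467 and 467 reads in BALB/c but 678, 1370 and 14 reads in SKG. In CPM the BALB/c libraries were close together at 6.79, 12.6 and 10.3, whereas the SKG libraries held both the highest and the lowest values, at 16.8, 35.2 and 0.387. The highest SKG value was 91.0 times the lowest. The log2 fold change of 0.82 had an SE of 1.31 and a 95% interval from -2.32 to 3.96 (adjusted p = 0.991), so that the direction cannot be read from these libraries. It was 1.41 without SKG replicate 3 and -0.19 without SKG replicate 2.

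Dusp10 encodes a phosphatase that prefers JNK and p38 over ERK (chr1:184013302-184075636). Its expression was 71.1, 19.4 and 38.6 CPM in BALB/c, from 2932, 720 and 1743 reads, and 42.5, 47.8 and 74.6 CPM in SKG, from 1714, 1859 and 2698 reads. BALB/c replicates 1 and 2 spanned nearly the whole range, so the groups overlapped. The log2 fold change was 0.35 (SE 0.53, 95% interval -0.91 to 1.62, adjusted p = 0.991), and it was -0.0041 without BALB/c replicate 2.

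Of the members, both Sprouty genes had a lower mean in SKG, Spry1 without passing the test and Spry2 without entering the main test. Spry1, the abundant Sprouty of these cells and an inhibitor of Ras and ERK signaling downstream of receptors (chr3:37639947-37644598), had 4509, 2488 and 3678 reads in BALB/c against 1969, 3106 and 974 reads in SKG. These were 109, 67.1 and 81.4 CPM against 48.9, 79.9 and 26.9 CPM. SKG replicates 1 and 3 lay below every BALB/c library, whereas SKG replicate 2 lay above BALB/c replicate 2. The means were 85.9 ± 21.5 and 51.9 ± 26.6 CPM (SD, n = 3 each), and the log2 fold change was -0.73 (SE 0.44, 95% interval -1.78 to 0.33, unadjusted p = 0.144, adjusted p = 0.972 by edgeR). It was -1.17 when SKG replicate 2 was left out, -0.40 when SKG replicate 3 was, and -0.19 without both BALB/c replicate 1 and SKG replicate 3. In the annotation 710 bases of its exons overlap those of Gm42922, which had 18 reads in all 6 libraries together.

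Spry2 (chr14:105891947-105896819, minus strand) was barely detected. It had 14, 3 and 65 reads in BALB/c against 0, 1 and 0 reads in SKG, so that it did not pass the filter on low counts and has no value in the main test. The BALB/c values all exceeded the SKG values, but most of the BALB/c reads came from replicate 3. The pooled reads were 82 against 1, a ratio of 78.5 after scaling to library totals with an exact 95% interval from 13.7 to 3139. That interval treats each read as a separate molecule, which copies made by PCR are not, and so can be too narrow even for counting error. It does not cover the spread between pools of mice. Without the filter on low counts, edgeR gave a log2 fold change of -5.73 (unadjusted p = 0.0613, adjusted p = 0.645). DESeq2, run without that filter, gave -6.02 without shrinkage (adjusted p = 0.161) and -1.56 with shrinkage (adjusted p = 0.478). Spry2 also passed the filter in some edgeR fits with 1 library left out, and was called in none of them.

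The Spred genes, whose products bring neurofibromin to the membrane to switch off Ras, gave no direction either. Spred1 (chr2:117121374-117182279) had 57, 182 and 1053 reads in BALB/c against 939, 941 and 150 reads in SKG, or 1.38, 4.91 and 23.3 CPM against 23.3, 24.2 and 4.15 CPM. High and low libraries occurred in both genotypes. Its log2 fold change was 0.80 (SE 1.20, 95% interval -2.08 to 3.68, adjusted p = 0.991), and without BALB/c replicate 3 it was 2.47. Spred2 (chr11:19924375-20024026) was expressed at 14.5, 13.05 and 18.3 CPM in BALB/c and at 24.6, 10.5 and 12.4 CPM in SKG, from 410 to 991 reads per library. The SKG libraries held both its highest and its lowest value. The means of 15.3 ± 2.74 and 15.8 ± 7.64 CPM (SD, n = 3 each) gave a log2 fold change of 0.05 (SE 0.63, 95% interval -1.46 to 1.57, adjusted p = 0.999).

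**Figure D3:**
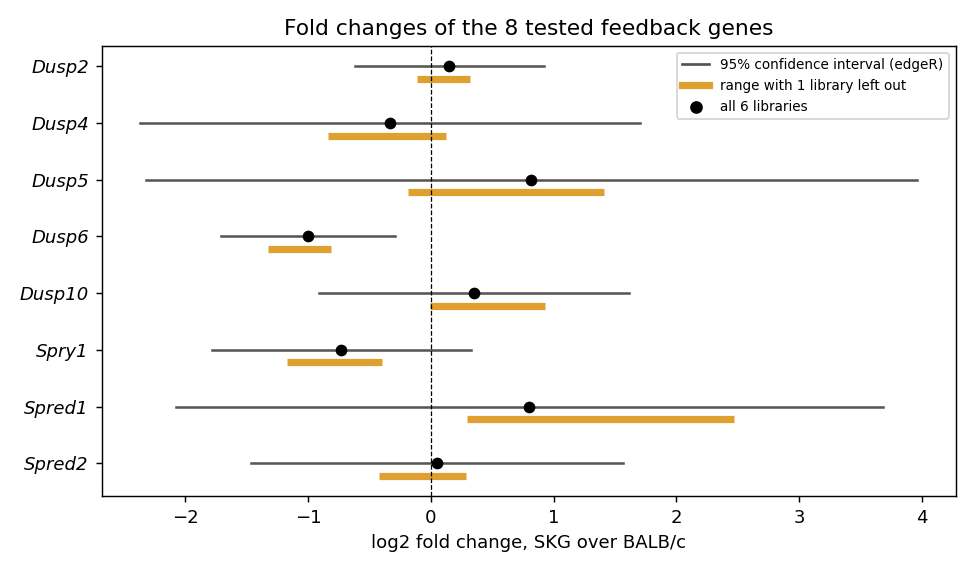
Log2 fold change of SKG over BALB/c for the 8 tested feedback genes (black point), with the 95% confidence interval from edgeR (gray line) and the range of the fold change when any 1 library is left out (orange bar). The interval of Dusp6, from -1.71 to -0.29, is the only one that does not include 0, before any correction for the number of genes tested; the intervals of Dusp5 and Spred1 are the widest of the 8.

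The spread between libraries of the same genotype differed strongly among the members. The coefficient of variation was 19.4% in BALB/c and 36.6% in SKG for Dusp6, and 35.1% and 24.5% for Dusp2. It reached 119% in BALB/c for Spred1, 99.7% in SKG for Dusp5, and 72.4% and 59.2% for Dusp4. The medians over all genes tested were 37.5% in BALB/c and 38.4% in SKG, and 3 of the 8 members lay above the first and 5 above the second. Summed over the 8 tested members, expression was 645, 677 and 785 CPM in BALB/c and 520.1, 650 and 580 CPM in SKG. The sums overlapped narrowly, since SKG replicate 2 lay just above BALB/c replicate 1, and the log2 ratio of the means was -0.27. Most of each sum came from Dusp2 and Dusp6.

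Across the 6 libraries Dusp6 and Spry1 varied together, with a Pearson r of 0.91 on the log2 CPM scale, which is a description over 6 points that share library and genotype. The r of Dusp6 was -0.39 with Dusp2, 0.43 with Dusp5 and -0.35 with Dusp4 on the same scale. Among 12311 other genes, those with the pattern most like Dusp6 were Cr1l (r = 0.988), Tagap (0.987) and Gramd1c (0.984), and 22 genes had an r above 0.95. For Spry1 they were Snora41 (r = 0.992), Dtymk (0.988) and Itpkb (0.988), with 71 genes above 0.95. For Dusp2 they were Zc3h8 (r = 0.998), 4930520O04Rik (0.996) and Bcdin3d (0.993), with 51 genes above 0.95.

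Of 60 other genes of the pathway 51 were tested, and edgeR called 0 of them. At an unadjusted p under 0.05, 4 were higher in SKG and 4 in BALB/c. Over all genes tested the corresponding shares were 3.07% and 2.38%. Both DESeq2 fits called 4 of the 60 pathway genes, Dusp7, Ier2, Myc and Egr1. Of the 48397 genes of the whole table they called 370 without and 231 with shrinkage. At most 20668 of those genes had a read in any single library, so these shares do not compare directly. Among the other typical MAP kinase phosphatases, 1 of the 3 tested had an unadjusted p under 0.05. It was Dusp7, a cytoplasmic ERK phosphatase closely related to Dusp6, and it lay in the opposite direction. Dusp7 had 97, 120 and 195 reads in BALB/c against 640, 871 and 473 reads in SKG. All SKG libraries were above all BALB/c libraries, at a level far below that of Dusp6. Its means were 3.30 ± 0.98 and 17.1 ± 4.79 CPM (SD, n = 3 each), and its log2 fold change was 2.37 (SE 0.74, unadjusted p = 0.0166, adjusted p = 0.830 by edgeR). Dusp16, a JNK and p38 phosphatase, had 146, 209 and 184 reads against 52, 49 and 0 (log2 fold change -2.37, SE 1.69, unadjusted p = 0.207 by edgeR). Dusp1, the immediate-early phosphatase MKP-1, overlapped between the genotypes (0.44, SE 0.52), and Dusp8 and Dusp9 were too low to test. Of the 9 atypical dual-specificity phosphatases 6 were tested and 0 had an unadjusted p under 0.05. Their log2 fold changes were 0.34 for Dusp11, whose SKG libraries all lay above BALB/c, -0.13 for Dusp12, -0.41 for Dusp19, 0.60 for Dusp22, -0.27 for Dusp23 and 0.73 for Dusp28, while Dusp3, Dusp14 and Dusp18 were too low to test.

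Of the other Sprouty and Spred genes, Spry3 and Spred3 were too low to test, and Spry4 was tested. Spry4 had 1799, 654 and 885 reads in BALB/c against 157, 2 and 1 reads in SKG, so all BALB/c libraries lay above all SKG libraries and SKG replicate 1 stood apart from the other SKG libraries. Its means were 26.9 ± 14.5 and 1.33 ± 2.23 CPM (SD, n = 3 each), and its log2 fold change was -4.34 (SE 1.91, unadjusted p = 0.0594, adjusted p = 0.947 by edgeR). The fold change rests heavily on single libraries, and was -9.30 with SKG replicate 1 left out and -3.76 with SKG replicate 2 left out. Spry4 correlated with Dusp6 at r = 0.67 and with Spry1 at r = 0.63 over the 6 libraries. Spry1, Spry2 and Spry4 thus each had a lower mean in SKG, whereas Spry3, with 0, 0 and 2 reads in BALB/c against 14, 0 and 0 reads in SKG, did not. Neither Spry1 nor Spry4 passed the test over all genes, and Spry2 and Spry3 were below the filter of the main edgeR fit.

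Upstream of the feedback genes, the 21 genes of the Ras-ERK cascade had a median log2 fold change of 0.11, and 2 of them had an unadjusted p under 0.05. Rasgrp1, the exchange factor that loads Ras in thymocytes, had 18826, 32681 and 41978 reads in BALB/c against 61330, 71045 and 50561 reads in SKG (log2 fold change 1.07, SE 0.28, unadjusted p = 0.00788, adjusted p = 0.686 by edgeR). Ksr1 and Sos1, which had the largest log2 fold changes of this list, were at 1.87 (SE 1.34) and 1.29 (SE 1.75) with overlapping groups. In the JNK and p38 cascade the median of 8 genes was -0.27. Mapk9, which encodes JNK2, was 0.59 (SE 0.23), Mapk8 -1.14 (SE 1.03) and Mapk14, which encodes p38α, 0.62 (SE 0.29).

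Downstream, 12 of 14 ERK-responsive transcripts were tested, with a median log2 fold change of -0.54. In all, 4 had an unadjusted p under 0.05 by edgeR, all higher in BALB/c, against 2.38% of all genes tested. There were 5 without overlap between genotypes, again all higher in BALB/c, against 7.12% of all genes tested. The paper had already named Egr1, Egr2 and Myc as differing between these genotypes. Because the list was chosen with earlier results known, these counts are a description and not independent support. Egr1 and Egr2 encode zinc finger factors induced by TCR signals, and their log2 fold changes were -0.92 (SE 0.13) and -0.80 (SE 0.27). Ier2, an immediate-early gene, was at -1.53 (SE 0.20) and Myc at -1.43 (SE 0.18). Their adjusted p values by edgeR were 0.447 for Egr1, 0.834 for Egr2, 0.380 for Ier2 and 0.328 for Myc. The largest changes of the list, Fosl1 at -2.12 (SE 2.42) and Etv5 at 1.81 (SE 1.64), came from genes whose libraries overlapped. The 7 genes with overlap also included Fos at 0.16 (SE 0.43), Etv4 at 0.33 (SE 0.64), Junb at -0.28 (SE 0.30) and Nr4a1 at -0.24 (SE 0.41). Of the 12 tested genes, 8 had a log2 fold change below 0 and 4 above 0, so the direction was not shared by all. No test over the list was run. The log2 fold change of Dusp6 was thus close to that of Egr1 in size and direction, and had the larger SE. Whether any of these fold changes differed from each other was not tested.

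**Figure D4:**
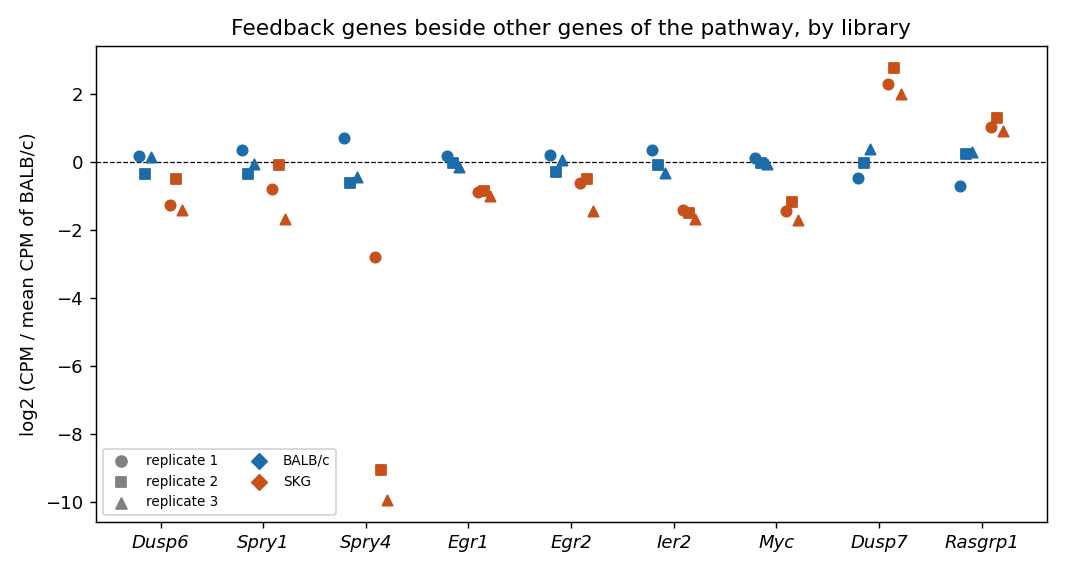
Log2 ratio of the CPM in each library to the mean CPM of the 3 BALB/c libraries (dashed line at 0) for Dusp6, Spry1, and named genes of the pathway, blue for BALB/c and orange for SKG, with shapes for replicates. SKG replicate 2 is the SKG library nearest to BALB/c for Dusp6 (-0.49) and Spry1 (-0.11), the SKG values of Spry4 run from -2.79 to -9.93, and Dusp7 and Rasgrp1 lie above all BALB/c libraries in SKG.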

How the data were processed

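RNA was sequenced from 6 libraries of stage 0 iNKT cells with single-end reads of 50 nt. Per the paper's methods the authors aligned reads to GRCm38 with HISAT2 2.1.0 and assigned them to exons with featureCounts (Subread 1.4.4), unstranded, with a minimum mapping quality of 10. The deposited values are whole-number counts per gene without normalization. A second deposited table holds the authors' DESeq2 fold changes and p-values and was not used. The labels name the SMART-Seq v4 kit and the methods the SEQR kit, and which applies was not settled. Copies made by PCR cannot be told from separate molecules.

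All 6 libraries entered one fit without covariates in edgeR 4.0.16 (R 4.3.3), with filterByExpr by genotype, TMM normalization, the quasi-likelihood F test and Benjamini-Hochberg adjustment over 12312 genes. Calls required an FDR below 0.1 and a 1.5-fold difference. Standard errors are |log2 fold change|/√F. Alternatives were DESeq2 1.42.0 with and without shrinkage, limma-voom 3.58.1, other size factors and filters, replicate numbers as a block, an FDR of 0.05, no fold threshold and each library left out. Leaving out BALB/c replicate 1 and SKG replicate 3 together was added after seeing the data. Of the fits, only that of edgeR was tested on simulated data, at a low dispersion and at the common dispersion of the data (0.842). A pass was required at the low dispersion only, so the simulation does not vouch for the fit at the spread of these libraries. Exon lengths, positions and overlaps came from GENCODE M21 on GRCm38, which may differ from the Ensembl annotation the authors counted on, and levels between genes are CPM per kilobase of merged exons. Log2 CPM for correlations used a prior count of 2.

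The members and gene lists were chosen with earlier results of these data known. All members were named, and of the other lists those genes at an unadjusted p under 0.05, genes of the same families, and the 2 with the largest absolute log2 fold change per list, except that 1 such gene is not reported here. Fos, Junb, Nr4a1, Etv4, Egr3 and Phlda1 were named in addition. For the 3 members with the highest mean CPM, the 3 most correlated genes were named. Counts cannot show the SKG point mutation. Chromatin accessibility was not analysed here.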

Additional observations from a re-analysis of the deposited data

How the results depend on the processing

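With 3 libraries per genotype, no member passed the correction over all genes. Over all combinations of a gene (8 members and Spry4) and an alternative, the fold change kept its direction and its side of the threshold in 129 and changed sign in 15. Dusp6, Spry1, Spred1 and Spry4 kept their sign in every alternative run. No alternative called a member. The called pathway genes were 4 and 4 with DESeq2 without and with shrinkage, and 0 in every other alternative. Called genes of the whole table were 370 and 231 with DESeq2, 2 without a filter on low counts, 1 with the stricter filter (mean of at least 5 CPM) and 0 otherwise. Members without overlap between the genotypes numbered 1 to 3 of 8 with 1 library left out (3 without BALB/c replicate 1), and 5 of 8 without both BALB/c replicate 1 and SKG replicate 3. Fewer libraries overlap less by construction, and the share of all genes tested without overlap went from 13.9% to between 21.6% and 27.1% with 1 left out and to 38.7% with both. The log2 fold change of Dusp2 ranged from -0.11 to 0.32 with 1 library left out and was -0.30 without both. The ranges with 1 library left out were -0.83 to 0.12 for Dusp4, -0.19 to 1.41 for Dusp5, -0.0041 to 0.93 for Dusp10 and -0.42 to 0.29 for Spred2. Dusp5 was at -0.52 in limma-voom, and Spred2 at -0.037. The cause of these sign changes was not tested.

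The residuals of libraries with the same replicate number had correlations near 0 or below (r from -0.145 to -0.01 for title numbers and from -0.04 to 0.00289 for library numbers). These values gave no sign that the numbers pair the libraries, but so few pairs cannot exclude it. Only library numbers 2 and 3 occurred in both genotypes, so the block on library number compared the genotypes within those numbers alone. With the title number as a replicate block Dusp5 was at -0.042 and Spred2 at -0.040, and with the library number as a replicate block they were at -1.28 and -0.27. Neither block called a gene, and 0 of 6 libraries correlated best with the library of their own title number in the other genotype.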
